A study of Bos taurus with 39 samples.

Results

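A set of 9 miRNAs known as markers of blood and immune cells was followed through the bovine oocyte libraries. It held bta-miR-144, bta-miR-451 and bta-miR-486 for erythrocytes, and bta-miR-142-5p, bta-miR-142-3p, bta-miR-223 and bta-miR-150 for leukocytes. The set also held bta-miR-146a and bta-miR-146b, which are linked to NF-kappaB signalling. All members were chosen by name, as the 9 matching entries among 1995 miRNAs in the count tables. Of the 1995, 1030 are known and 965 are predicted. All 9 were found under 8 RefSeq gene symbols, because both arms of MIR142 belong to 1 gene, and MIR451 and MIR144 are neighbouring genes in assembly ARS-UCD2.0.

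The 39 libraries were made from RNA of pooled Bos taurus oocytes, from ovaries collected at a slaughterhouse. In the control group, oocytes stayed within the cumulus-oocyte complex (COC) throughout maturation, and CBX oocytes did so in the presence of carbenoxolone, which blocks gap junctions. In the cocult group denuded oocytes shared their medium with COCs across a porous insert, and DO oocytes were denuded and kept by themselves. Each of these 4 groups was sampled at 1, 6 and 22 h with 3 libraries, and 3 further libraries are labelled as control at 0 h, which gives 13 conditions. By the methods of the study, COCs were stripped of cumulus with hyaluronidase after culture, DO oocytes had been stripped before it and lost their zona to pronase afterwards, and oocytes with a polar body were kept. Denuded oocytes (cocult and DO) thus differ from enclosed ones (control and CBX) in handling as well as in cumulus contact, and the 2 cannot be told apart. Control and CBX were both matured as COCs, and the methods describe no difference between them other than carbenoxolone. The labels name no animal, and the 0 h libraries have no description beyond their label.

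miR-451 and miR-144 are transcribed together in the erythroid lineage, and miR-486 is also abundant in red blood cells. miR-223 is a myeloid miRNA that is very abundant in neutrophils, miR-142 is expressed throughout the haematopoietic lineage, and miR-150 is a miRNA of mature lymphocytes. miR-146a and miR-146b act as feedback inhibitors of Toll-like receptor signalling, are expressed in many cell types besides leukocytes, and carry the same seed, so they share most predicted targets.

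The libraries held 11985 to 175429 counts on miRNAs, with a median of 70069. Values are given as CPM, the count scaled to a library total of 1000000, and a floor of 3 counts corresponds to 17.1 to 250.3 CPM. All 39 pairs of replicates differed by more than sampling noise, with a chi-square per degree of freedom of 3.86 to 17.1. DO 6 h replicate 2 and control 0 h replicate 1 stood apart for several members, and are named wherever a value rests on them. Intervals and floors cover counting error only.

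The set was split into 3 abundant and 6 scarce members. Over the 39 libraries the 9 members held 9777 counts, and bta-miR-146a, bta-miR-146b and bta-miR-150 carried 96.8% of them. These 3 were detected in all 39 libraries. bta-miR-146a had a mean level of 1311 CPM and ranked 48 among the 498 known miRNAs detected, bta-miR-146b had 1285 CPM and ranked 49, and bta-miR-150 had 429 CPM and ranked 81. The defining markers of erythrocytes and of myeloid cells were near 0 in most libraries.

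**Figure D1:**
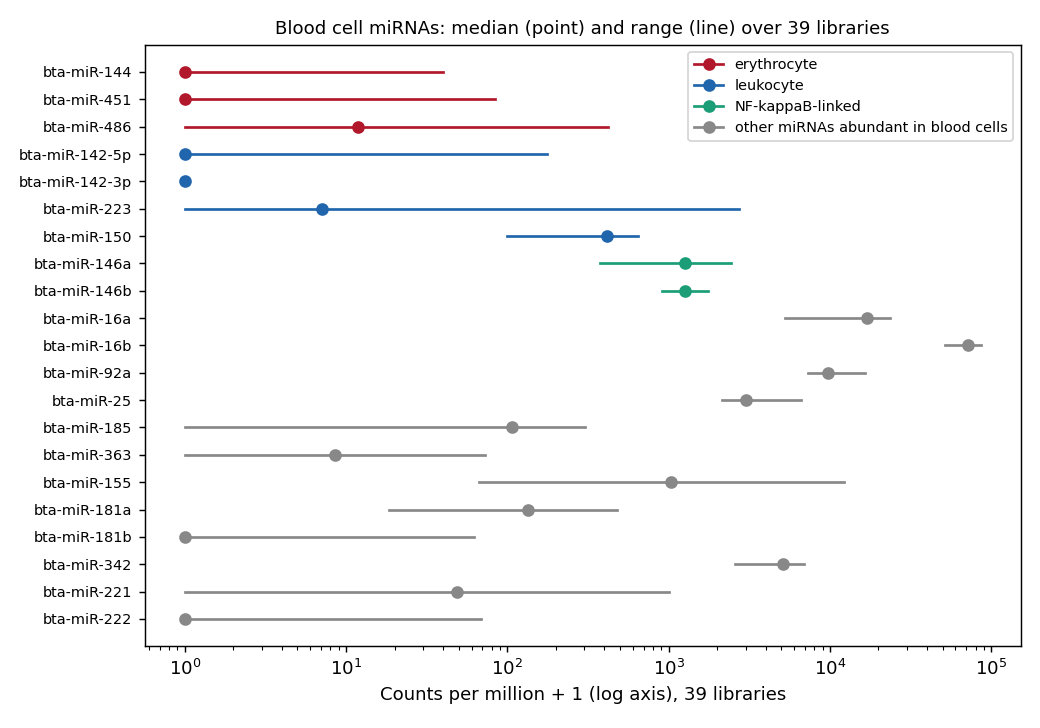
Levels of the 9 members and of 12 other miRNAs abundant in blood cells, as the median (point) and the range (line) over 39 libraries on a log axis of CPM plus 1. The medians of the erythrocyte markers and of the leukocyte markers other than bta-miR-150 lie far to the left of bta-miR-146a and bta-miR-146b, and bta-miR-142-3p is at 0.

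The 3 erythrocyte markers summed to 81 counts, which is 0.828% of the counts of the set. They were at 0 in 15 of 39 libraries, and no library held more than 7 of them. bta-miR-451 had 17 counts in 10 libraries, with a highest count of 3. Summed over all libraries this gave 5.61 CPM (exact 95% interval 3.27 to 8.99). bta-miR-144 had 7 counts in 4 libraries (control 1 h replicate 1, control 6 h replicate 2, CBX 6 h replicate 3 and control 22 h replicate 3), none above 2. bta-miR-486 was the most frequent of the 3, with 57 counts in 23 libraries and 18.8 CPM over all libraries (14.3 to 24.4). All 3 erythrocyte markers were at 0 in DO 6 h replicate 2.

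The library with the fewest counts on miRNAs was control 0 h replicate 1, with 11985. It is called shallow here by that measure, not by its total reads. This library held the highest level of bta-miR-486, at 5 counts or 417.2 CPM. It also held 1 count of bta-miR-451, 4 of bta-miR-223 and 2 of bta-miR-142-5p. In the other 2 control libraries at 0 h, bta-miR-486 had 2 and 0 counts, and bta-miR-223 had 0 and 3. A single count in the shallow library is worth more CPM than in any other library.

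The highest counts of bta-miR-223 and bta-miR-142-5p lay in the same library. Of the 206 counts of bta-miR-223, 155 (75.2%) lay in DO 6 h replicate 2, at 2715 CPM (exact 95% interval 2305 to 3177). The other DO 6 h libraries had 1 and 0 counts. The 38 other libraries together held 51 counts, or 17.2 CPM (12.8 to 22.6), and their highest count was 11, in control 1 h replicate 1. The level in DO 6 h replicate 2 was thus 158.2 times that of the others pooled. bta-miR-223 was at 0 in 18 libraries and detected in 21.

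bta-miR-142-5p had 22 counts in 8 libraries, and 10 of them lay in the same library, at 175.2 CPM (84.0 to 322.1). The 38 others pooled held 12 counts, or 4.04 CPM (2.09 to 7.05). Its next highest count was 3, in cocult 1 h replicate 2, while control 0 h replicate 1 reached 166.9 CPM with 2 counts. bta-miR-142-3p, the other arm of the same hairpin, had 0 counts in all 39 libraries, and over the 3028647 counts of the series the floor of 3 counts is 0.991 CPM and the exact 95% upper limit 1.22 CPM.

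**Figure D2:**
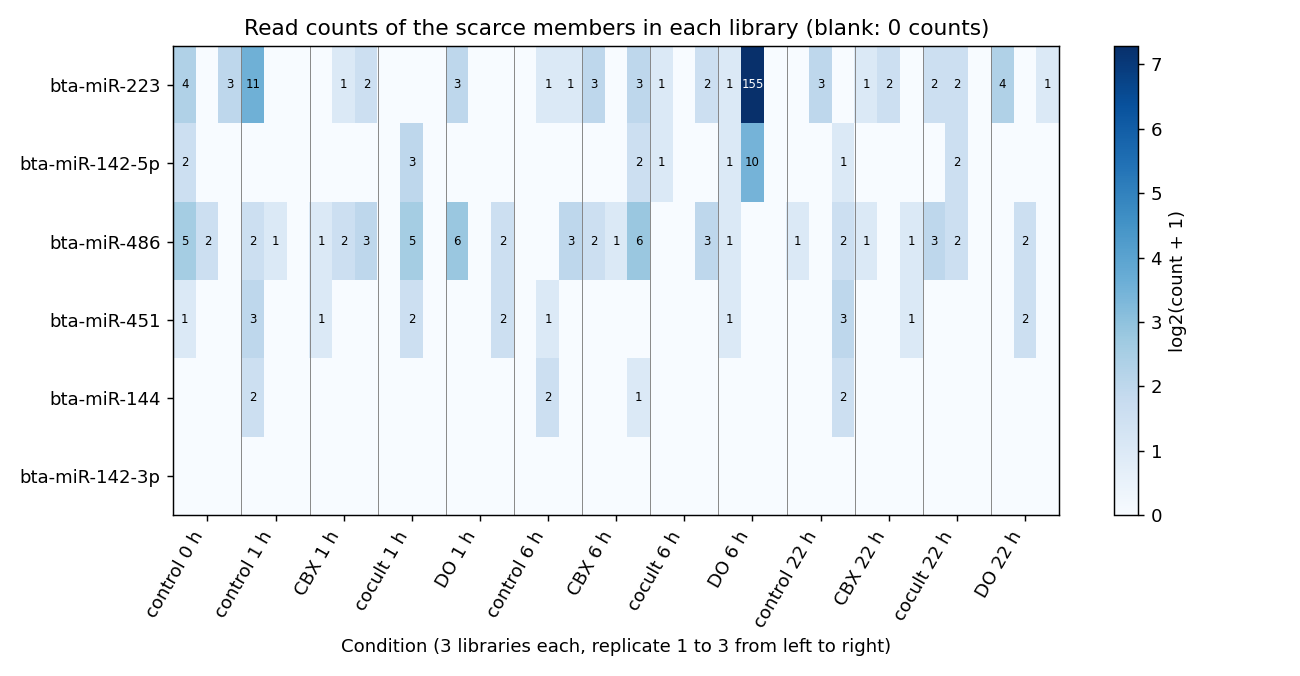
Counts of the 6 scarce members in each of the 39 libraries, with replicates 1 to 3 from left to right in each condition, shading for log2(count + 1), and blank cells for 0 counts. DO 6 h replicate 2 stands apart through 155 counts of bta-miR-223 and 10 of bta-miR-142-5p, and its counts of bta-miR-486, bta-miR-451 and bta-miR-144 are 0.

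In DO 6 h replicate 2 the abundant members were within the range of the other libraries. bta-miR-146a stood at 1103 CPM, bta-miR-146b at 1226 CPM and bta-miR-150 at 350.3 CPM there. For bta-miR-150, the median over the 39 libraries was 412.4 CPM, so the lymphocyte marker was not raised where the myeloid marker was highest. Of 100 non-member known miRNAs with at least 10 counts in it, 1 lay above the highest of the other 38 libraries: bta-miR-449a, with 17 counts and 297.8 CPM, 1.68 times the highest level elsewhere. The next in order, bta-miR-26a, bta-miR-194, bta-miR-200a and bta-miR-16b, were at 0.852, 0.832, 0.828 and 0.818 times the highest level elsewhere. For bta-miR-223 the corresponding ratio was 8.13, against control 0 h replicate 1 with 4 counts (333.8 CPM), and 22.6 without that library, against control 1 h replicate 1 (120.3 CPM).

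Marker lists of other cell types were summed in the same library. The summed leukocyte list was at 3240 CPM there, which mostly restates the bta-miR-223 level by which the library was picked. The lists of endothelium and platelets (87.6 CPM), of granulosa and cumulus (5184 CPM), of skeletal muscle (140.1 CPM), of smooth muscle and stroma (1296 CPM) and of epithelium (5360 CPM) ranked between 14 and 33 of 39. The list of other miRNAs abundant in blood cells was at 104897 CPM and ranked 30. The part of any other cell type in the bta-miR-223 counts was not tested. In pooled oocytes, fewer cells of a type and less RNA per cell cannot be told apart.

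Summed over the 9 members, the share of all miRNA counts was 0.176% to 0.557% per library, with a median of 0.307%. The condition means ran from 0.241% ± 0.057 (SD, n = 3) in CBX 22 h to 0.390% ± 0.154 in DO 6 h. DO 6 h came down to 0.307% ± 0.077 (n = 2) without replicate 2, and cocult 1 h at 0.360% ± 0.069 was then the highest. No test was made of this sum. Without bta-miR-146a, bta-miR-146b and bta-miR-150, the remaining 6 members held 309 counts, and 8 libraries had 0 of them.

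Some other miRNAs that blood cells express strongly were abundant in every oocyte library. bta-miR-16b, a member of the miR-15/16 family found in most tissues, was the most abundant known miRNA, with a median of 71920 CPM (51660 to 86025). bta-miR-16a had a median of 17000 CPM, bta-miR-92a 9672 CPM and bta-miR-342 5151 CPM. bta-miR-126-3p, the endothelial miRNA, had a median of 42.4 CPM, and of the 2 miRNAs of smooth muscle and stroma, bta-miR-145 had a median of 0 CPM and bta-miR-143 of 1660 CPM (999 to 2605). The median of bta-miR-486 was 10.9 CPM, and those of bta-miR-451 and bta-miR-144 were 0.

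The 3 abundant members were the only ones with enough counts to be compared between groups. The question was whether their level in the oocyte depends on the presence of cumulus cells or on open gap junctions. bta-miR-146a ranged from 372.4 to 2421 CPM over the 39 libraries, with condition means from 868.6 ± 429.8 (CBX 22 h) to 1920 ± 515.1 CPM (cocult 1 h, both SD, n = 3). bta-miR-146b was the steadiest, between 904.4 and 1759 CPM, with condition means from 1063 ± 166.6 (CBX 22 h) to 1630 ± 72.2 CPM (cocult 22 h). bta-miR-150 lay between 99.1 and 649.1 CPM, with condition means from 286.5 ± 164.8 (control 6 h) to 573.9 ± 65.3 CPM (DO 22 h). Its lowest level was 2 counts in control 6 h replicate 1, a library of 20180 counts. Replicates 2 and 3 of that condition had 409.1 and 351.3 CPM.

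When the 13 conditions were ordered by their mean, the gap between neighbours exceeded the larger of their SDs in 0 of 12 places for bta-miR-146a and bta-miR-150, and in 1 of 12 for bta-miR-146b. At 0 h the control libraries had 1447 ± 113.8 CPM of bta-miR-146a, 1310 ± 97.0 of bta-miR-146b and 319.9 ± 53.9 of bta-miR-150 (n = 3). These values lay within the range of the later conditions.

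**Figure D3:**
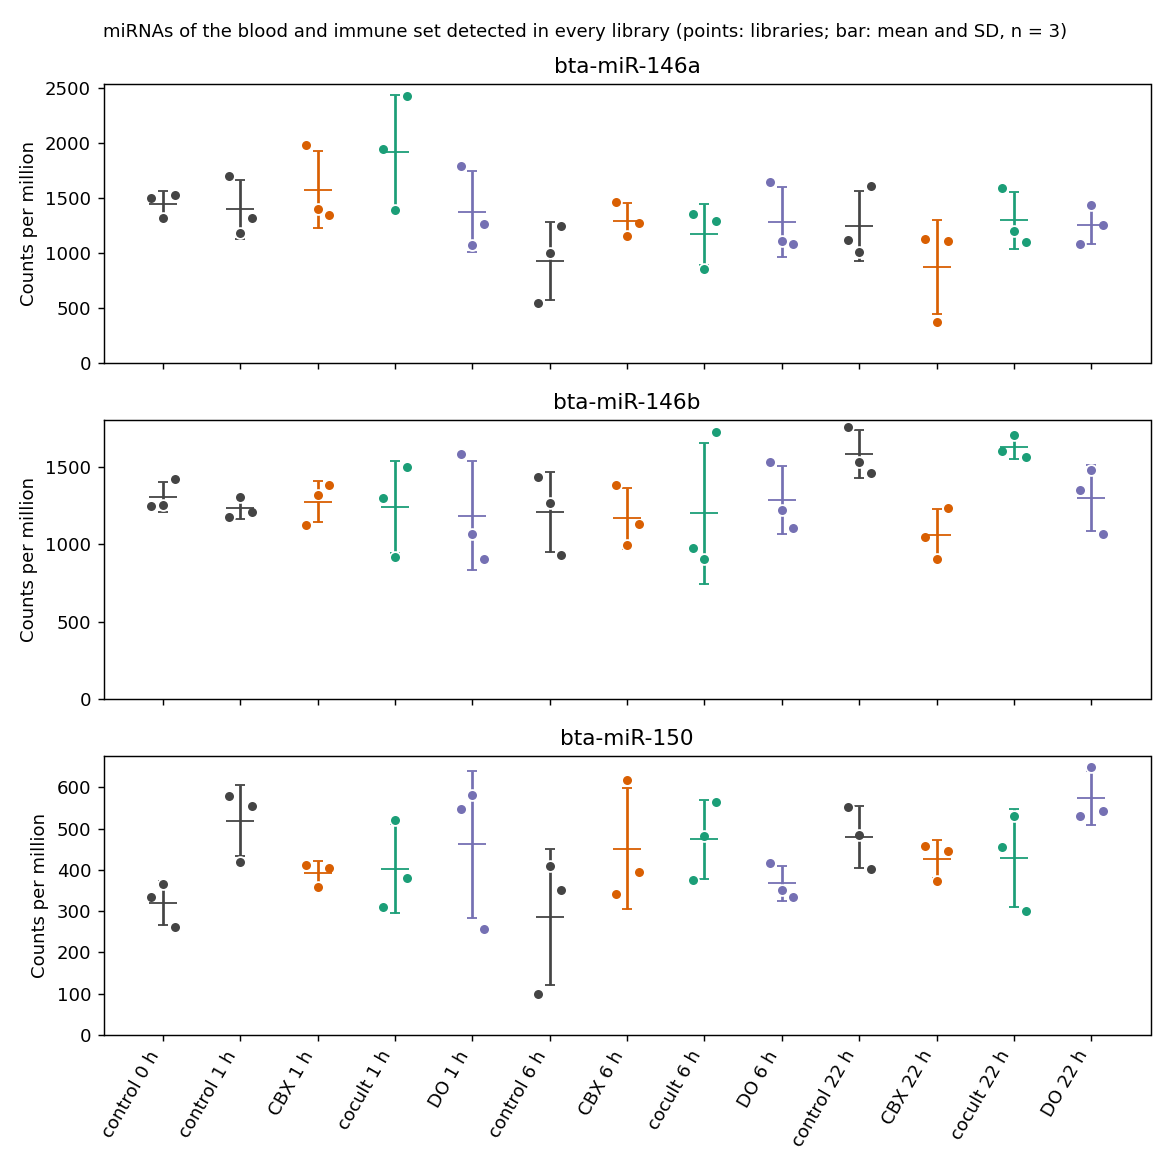
CPM of bta-miR-146a, bta-miR-146b and bta-miR-150 in each library (points) with the mean and SD of 3 libraries per condition (bars), ordered by time and culture group. The libraries of most conditions overlap, and the lowest bta-miR-146a value, 372.4 CPM, belongs to CBX 22 h replicate 2.

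None of the 3 members was differentially expressed between the groups at any time point. The 18 comparisons gave 54 tests with edgeR's quasi-likelihood test, where a call needed both an adjusted p-value under 0.05 and a log2 fold change of 1 or more in either direction, and 0 of 54 passed. Over all miRNAs tested, the share past the threshold was 1.46% in DO against CBX at 1 h, 2.35% in DO against CBX at 6 h, 0.473% in DO against cocult at 6 h, 0.216% in cocult against control at 22 h, 0.232% in DO against CBX at 22 h, and 0% in the other 13 comparisons. The log2 fold changes of the members lay between -0.58 and 0.73, with standard errors of 0.16 to 0.49. No change under a log2 fold change of 1 could be called. Without the fold threshold 0 of 54 passed too, but changes within this error, and larger ones that fail the adjustment, would still be missed. DESeq2 called 0 of 54 as well. At an unadjusted p-value under 0.05 there was 1 result with edgeR and there were 0 with DESeq2.

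The 1 result at an unadjusted p-value under 0.05 was bta-miR-146b in cocult against CBX at 22 h. The CBX libraries had 904.4, 1047 and 1236 CPM and the cocult libraries 1570, 1609 and 1710 CPM. The log2 fold change was 0.62 (SE 0.23), and the adjusted p-value of edgeR's quasi-likelihood test was 0.717. CBX was also lower than the control libraries at 22 h (1462, 1534 and 1759 CPM). The log2 fold change was -0.58 and the adjusted p-value of the same test 0.469, the smallest of the 54. Neither passed. Without the CBX library of 18796 counts, the values were 0.52 (SE 0.23, adjusted p-value 0.338) and -0.52 (SE 0.22, adjusted p-value 0.266).

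**Figure D4:**
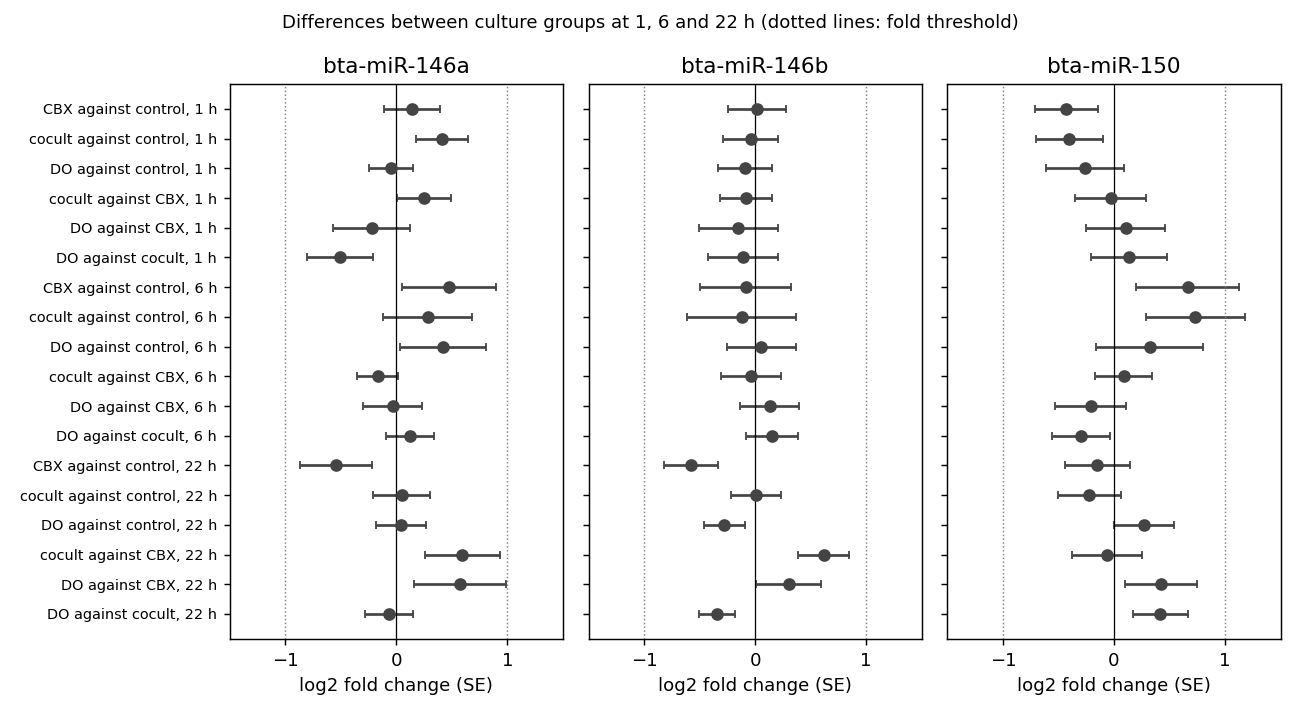
Log2 fold changes (points) with standard errors (bars) of the 3 abundant members in the 18 comparisons of groups at 1, 6 and 22 h, with dotted lines at the fold threshold. The points lie between -0.58 and 0.73, inside the threshold.

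Averaged over the 3 time points, CBX, cocult and DO also did not differ from control for any of the 3 members, with 0 of 9 tests passing an adjusted p-value of 0.05, and 0 of 9 at an unadjusted p-value under 0.05, with edgeR as with DESeq2. Over all 600 miRNAs tested, 0.167% passed for CBX, 0.167% for cocult and 0% for DO. The log2 fold changes lay between -0.21 (bta-miR-146b, CBX) and 0.25 (bta-miR-146a, cocult). Their standard errors were 0.15 to 0.18, and changes within this error would be missed. The change between 1 h and 22 h did not pass for a difference from control in CBX, cocult or DO, with 0 of 9 tests (also 0 at an unadjusted p-value under 0.05 with either tool) and 0% of all miRNAs in each of the 3.

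The second question was whether the members change during maturation. Within a group, 22 h against 1 h gave 0 calls in 12 tests (0 at an unadjusted p-value under 0.05 with edgeR and with DESeq2), and the background was 0.44% in control, 0% in CBX, 0% in cocult and 1.81% in DO. In one fit over the 36 libraries, where the 4 groups were averaged, bta-miR-146a was lower at 22 h than at 1 h by a log2 fold change of -0.33 (SE 0.14), with an unadjusted p-value of 0.027 and an adjusted p-value of 0.137 in edgeR's quasi-likelihood test. bta-miR-146b had a log2 fold change of 0.24 (SE 0.13, adjusted p-value 0.221) and bta-miR-150 of 0.19 (SE 0.15, adjusted p-value 0.452). None passed, while 9.17% of the 600 miRNAs did.

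Between 1 h and 6 h, bta-miR-146a had a log2 fold change of -0.35 (SE 0.14), where 0.333% of the miRNAs passed. Its unadjusted p-value in edgeR's quasi-likelihood test was 0.017 and its adjusted p-value 0.244. Between 6 h and 22 h bta-miR-146a had 0.03 (SE 0.14, adjusted p-value 0.971), where 0.167% passed. Over the 3 comparisons of times in this fit, 2 of 9 member tests had an unadjusted p-value under 0.05 with edgeR. With DESeq2 there were 4 of 9, and 0 passed the adjustment with either tool. Of the 12 other miRNAs abundant in blood cells, 9 could be tested between 1 h and 22 h, of which 1 rose and 0 fell. Of all 600 miRNAs tested between these times, 9.17% passed. Whether this list or those below differ from that share was not tested. The one that rose was bta-miR-155, a miRNA induced in activated immune cells, with a log2 fold change of 3.71 (SE 0.39, adjusted p-value 1.62e-07 in edgeR). In the lists for other cell types, of 3 tested granulosa and cumulus miRNAs 1 rose (bta-miR-21-5p, log2 fold change 0.48) and 1 fell (bta-miR-202, log2 fold change -0.99), and 0 of the 6 tested miRNAs of epithelium, smooth muscle and skeletal muscle changed. These are averages over the 4 groups. The mean sum of the granulosa and cumulus list went from 5547 CPM at 1 h to 9337 at 22 h in control. It went from 5594 to 4840 in CBX, from 5206 to 5383 in cocult and from 4817 to 5870 in DO. Group differences in this sum were not tested.

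In the counts, the balance of bta-miR-146a and bta-miR-146b differed between 1 h and 22 h. This comparison was chosen with counts of these libraries already known, and neither miRNA alone passed. The share of bta-miR-146a in the counts of both, a ratio within each library, was 55.5% ± 5.52 (SD, n = 12 libraries) at 1 h, 48.7% ± 8.15 at 6 h and 44.9% ± 7.22 at 22 h. In the 3 control libraries at 0 h it was 52.5% ± 1.83. At 1 h the 12 libraries lay between 47.4% and 63.7%, and at 22 h between 29.2% and 54.0%, so that the 2 times overlapped.

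In pairs of the same group and replicate number, the share was lower at 22 h in 11 of 12 pairs. In control it went from 58.9% to 38.8% in replicate 1, from 47.4% to 39.7% in replicate 2 and from 52.0% to 52.4% in replicate 3. In CBX it went from 63.7% to 51.8%, from 51.5% to 29.2% and from 49.3% to 47.3% in replicates 1 to 3.

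In cocult the change was from 59.9% to 49.7%, from 60.2% to 41.1% and from 61.7% to 41.2%. In DO it was from 53.0% to 44.3%, from 50% to 49.1% and from 58.2% to 54.0%. The cocult libraries were separated without overlap between the 2 times, and in the other groups the ranges overlapped.

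The mean change was -10.6 percentage points (SE 2.37, n = 12 pairs), with a p-value of 0.000977 in an exact two-sided sign-flip permutation test over the pairs. Adjusted over the 3 comparisons of time points it was 0.00293. The change from 1 h to 6 h was -6.77 percentage points (SE 3.05, lower in 9 of 12 pairs, exact permutation p = 0.0391, adjusted 0.0586), and from 6 h to 22 h -3.83 (SE 2.51, lower in 8 of 12, exact permutation p = 0.151). The share was put to the test with counts of these libraries already known, and the p-value is not independent evidence. The 12 pairs come from 4 groups that share 3 replicate numbers, and the replicate number was taken as the ovary pool. The SEs and permutation p-values treat the pairs as independent and may overstate the replication. Differences in the change between the groups were not tested.

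The mean change of the share was -9.15 ± 10.4 percentage points in control (SD, n = 3 pairs), -12.1 ± 10.2 in CBX, -16.6 ± 5.56 in cocult and -4.60 ± 3.95 in DO. CBX 22 h replicate 2 had 24 counts of both miRNAs, with an exact 95% interval of the share of 12.6% to 51.1%. Restricting the pairs to those with at least 50 counts of both in each library left 11 pairs and a change of -9.53 percentage points (exact permutation p = 0.00195). Over the 36 libraries at 1, 6 and 22 h the share had a Spearman rho of 0.36 with the total count, and of 0.54, 0.49 and 0.29 within the 12 libraries of each time, in that order. The median total was 78966 counts at 1 h and 74820 at 22 h.

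**Figure D5:**
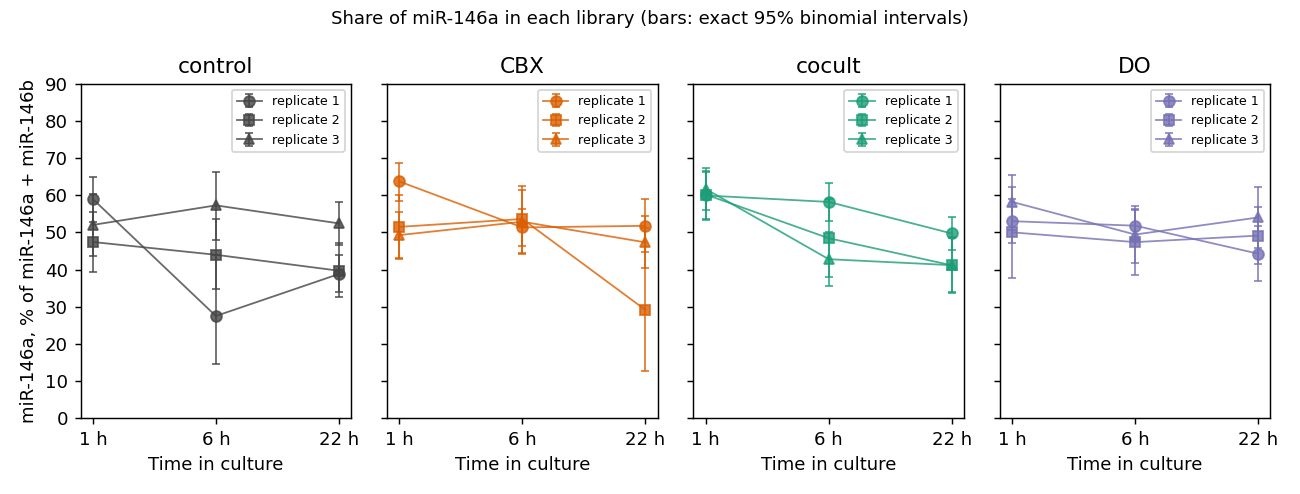
Share of bta-miR-146a in the summed counts of bta-miR-146a and bta-miR-146b at 1, 6 and 22 h in the 4 groups, with exact 95% binomial intervals and a line for each replicate number. The share at 22 h is below that at 1 h in 11 of 12 lines, with control replicate 3 as the exception.

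The 2 mature miRNAs are near-identical, and how reads that match both were assigned is not given in the sources used here. The split of counts between them is therefore uncertain. Both entries summed gave 0 calls in the comparisons.

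The abundant members were at most weakly correlated with each other over the 39 libraries. The scarce members were not correlated with each other in this way, so whether they varied together was not tested. The Spearman rho of the CPM was 0.25 between bta-miR-146a and bta-miR-146b, -0.03 between bta-miR-146a and bta-miR-150 and 0.09 between bta-miR-146b and bta-miR-150. Among 173 non-member known miRNAs with at least 100 counts, bta-miR-146a was most like bta-miR-19b (0.77), bta-miR-138 (0.70) and bta-miR-20a (0.66). bta-miR-146b was most like bta-miR-30d (0.49), bta-miR-30a-5p (0.43) and bta-miR-182 (0.36).

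bta-miR-150 was most like bta-miR-30b-5p (0.46), bta-miR-200b (0.43) and bta-miR-16a (0.42), and bta-miR-223 was most like bta-miR-204 (0.55), bta-miR-507-3p (0.39) and bta-miR-320a (0.38). These correlations describe libraries that share groups, replicate numbers (taken as ovary pools) and a CPM scale in which the values of a library sum to a constant. For bta-miR-223, detected in 21 of 39 libraries with a median of 1 count, the ranks also hold many ties. bta-miR-223 and bta-miR-142-5p were both detected in 6 libraries, bta-miR-223 alone in 15, bta-miR-142-5p alone in 2 and neither in 16.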

How the data were processed

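The authors removed adapters from the reads, deduplicated them by unique molecular identifier with UMI-tools, mapped them to ARS-UCD1.2 and counted them on known and predicted mature miRNAs. The deposited values are raw counts per miRNA, and 0 of the columns were unmapped. The known and predicted tables were joined and analysed with edgeR 4.0.16 (TMM, filterByExpr at 10 counts and a total of 15, quasi-likelihood F-test, Benjamini-Hochberg adjustment) and, as an alternative, DESeq2 1.42.0. The replicate number was a block. It was taken as the ovary pool, which the study entered as batch, but the labels do not state this link. Over 66 pairs of same-numbered libraries the correlation of deviations was -0.118 to 0.698, and over 0.1 in 48. Comparisons of groups and times used their own 6 libraries, and averaged contrasts the 36 libraries at 1, 6 and 22 h. The log2 fold change is the first-named group over the second. The standard error is the size of the log2 fold change over the square root of F. Intervals are exact binomial (95%). The procedures were tested on simulated data. Named miRNAs were the 9 members, the 3 most correlated with each member of at least 100 counts, the 5 highest for DO 6 h replicate 2, and the marker lists. Members and lists were chosen with earlier results of these data known. Replicates are pools of oocytes, and p-values measure the spread between these pools. In the permutation tests of the share, pairs with the same replicate number were treated as independent. The comparisons of the share with 6 h were added after the values had been seen.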

Additional observations from a re-analysis of the deposited data

Results flagged for a closer look

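In members too scarce for the comparisons, and in the control libraries at 0 h, a library was listed where it had more than 3 counts and the lower bound of its exact 95% interval lay above the highest CPM of the 9 control libraries at 1, 6 and 22 h. By this rule 3 results were listed. bta-miR-223 had 155 counts in DO 6 h replicate 2, where the highest control level was 120.3 CPM against 2715 CPM. bta-miR-142-5p had 10 counts in the same library, where the highest control level was 10.6 CPM against 175.2 CPM. bta-miR-486 had 5 counts in control 0 h replicate 1, with 417.2 CPM against a highest control level of 52.7 CPM. Groups of 3 libraries were not screened for outlying samples.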

How the results depend on the processing

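The members gave 0 calls between groups under 16 of 17 alternatives. The exception was testing every miRNA with any count, which gave 2 calls, both bta-miR-223: DO against control at 6 h (log2 fold change 5.36, adjusted p-value 0.00609 with edgeR) and DO against cocult at 6 h (5.08, adjusted p-value 1.24e-12). Without DO 6 h replicate 2, an alternative chosen after seeing the data, these became -1.16 (adjusted p-value 1) and -1.49 (adjusted p-value 0.993), so both rest on 1 library. Calls between times, in averaged groups and in interactions were 0 under all alternatives run, with and without the replicate block (0 calls without it in each). The change of bta-miR-146a from 1 h to 22 h ran from -0.48 to -0.25, of bta-miR-146b from 0.06 to 0.27 and of bta-miR-150 from 0.02 to 0.23, none past the threshold. With deduplicated reads as library size, the median of all miRNAs shifted by -0.20. The share of bta-miR-146a kept its direction and its p-value under 0.05 in the alternatives that gave one, including that without the replicate block (permutation p = 0.00038), and ran from -12.6 to -9.52 percentage points when 1 replicate number was left out. As a log2 ratio with 0.5 counts added, the change was -0.62. The ratio of the highest to the lowest condition mean of the summed share was 1.62. Without bta-miR-146a, bta-miR-146b and bta-miR-150 it was 31.4 (SD 69.5), for DO 6 h over cocult 6 h, which rests on DO 6 h replicate 2 (0.289%, with 0.00228% and 0% in the other DO 6 h libraries). With that library also left out, chosen after seeing the data, it was 31.9 (SD 66.2), for control 0 h over DO 6 h, and the control 0 h mean then rests on the shallow replicate 1. Leaving out 1 replicate number gave 1.68 to 2.09. Summing bta-miR-146a and bta-miR-146b gives no value for either alone. Depth limits the scarce members, of which a count or none is seen in most libraries.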
